A study of Mus musculus with 6 samples.

Results

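The genes described here are the integrins, collagens and laminins of the mouse, taken as every non-control probe of the array whose gene name starts as an integrin subunit, a collagen chain or a laminin chain does. This name rule found 131 probes of 87 genes among the 55681 probes of the array. The members are 43 collagen genes with 68 probes, 18 integrin alpha subunits with 27 probes, 8 integrin beta subunits with 11 probes and 11 laminin chains with 13 probes. The remaining 7 genes, with 12 probes, match the name rule but do not carry the plain name of such a subunit or chain. Among these are Itgb1bp1, a protein that binds the tail of integrin beta1, Itgb3bp, a centromere protein, and Col4a3bp, a ceramide transfer protein now named Cert1.

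RNA came from 1676 cells, a mouse pre-B cell line that lacks both adaptor proteins SLP-65 and LAT (SLP-65-/- LAT-/-) and was kept in the growth factor IL-7 in all groups. Cells were infected with a retroviral control vector (2 arrays), a vector for hsa-miR-26a-2 (2 arrays, called miR-26a) or a vector for a sponge transcript that binds members of the miR-26 family (2 arrays, called sponge), and were then selected with puromycin. The control vector was empty and carried no scrambled sponge. Each group was made in 2 experiments with separately generated cells of this one line, so the spread between arrays is that of 2 transductions per group, and no other line or primary cell was analysed here. All 6 arrays lay on 1 slide that was scanned once, with replicate 1 and replicate 2 in different rows of the slide. The control titles also quote other sample records, so the control cells may have been described in another series, and whether they were cultured beside the construct cells is not given in the sources used here.

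Integrins are cell surface receptors built from 1 alpha and 1 beta subunit, and they hold blood cells to other cells or to the matrix. In the bone marrow, alpha4beta1 binds B cell precursors to the vascular cell adhesion molecule and to fibronectin, while the beta2 integrins alphaL and alphaM bind intercellular adhesion molecules. Collagens and laminins are the matrix proteins themselves, made mainly by fibroblasts, endothelium and epithelium. Laminins are trimers of an alpha, a beta and a gamma chain, and alpha6beta4 is the laminin receptor of epithelial hemidesmosomes.

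The comparison of miR-26a with control asks what an excess of miR-26a does to the transcripts, and the sponge asks the same for less free miR-26. The mature miR-26 sequences are shown because all target words below derive from them, with the seed (bases 2 to 8) in capitals. They are the mouse forms from RefSeq, and both share one seed.
mmu-miR-26a-5p: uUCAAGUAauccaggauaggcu
mmu-miR-26b-5p: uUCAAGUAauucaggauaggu
The probes were searched, as deposited and on that strand only, for the letters that pair with the seed. TACTTGA (the 7mer-m8 word) and ACTTGAA (the 7mer-A1 word) were in 0 of the 131 member probes, and in 0.431% and 0.70% of all probes of the array. The shorter word ACTTGA, which lies inside both of the others, was in 2 member probes (1.53%, against 1.96% of all probes). A probe reads only a short stretch of its transcript, so a word missing here says nothing about the rest of that transcript. The 2 windows that hold the word, in capitals, belong to Col15a1, a basement membrane collagen (mm9, chr4:47283786-47283845), and to Itgal, the alphaL subunit (chr7:134477160-134477219).
Col15a1 probe A_55_P2060386: gggacagcctggACTTGAtggagcctctgg
Itgal probe A_51_P466378: ACTTGAgagccctggctctgaccagcttca
Neither probe was bright enough to be tested. The Itgal probe gave 4.41 and 4.51 (log2 normalised signal) on the control arrays, 4.79 and 4.51 on the miR-26a arrays and 4.48 and 3.84 on the sponge arrays, so the groups overlapped. Col15a1 was above background on 1 sponge array only.

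Most collagens and many integrins were not detected in these cells. A probe was called detected in a group when the scanner software marked it well above background on both arrays. Of the 131 member probes, 42 (32.1%) were detected in control cells, 41 (31.3%) with miR-26a and 44 (33.6%) with the sponge, while 47.3%, 46.8% and 46.9% of all probes of the array were. 78 member probes, and all probes of 47 genes, were above background on no array. The arrays were alike in this respect, with 28823 to 29800 of 59305 spots well above background and none saturated.

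The integrin genes with a detected probe were Itga4, Itga6, Itga10, Itgav, Itgal, Itgam, Itga2b, Itgb1, Itgb2, Itgb3 and Itgb4. Itga5 and Itgae (partners of beta1 and beta7), Itgax (alphaX of myeloid and dendritic cells) and Itgb7 (the beta subunit of the gut homing receptor) were above background on no array, as were 11 of 18 alpha and 4 of 8 beta genes in all. Detection does not show protein on the surface. Itgb3, the beta subunit of the platelet fibrinogen receptor, gave 4.35 and 4.78 in control, 3.41 and 4.18 with miR-26a and 4.73 and 5.20 with the sponge, and its first miR-26a array was not above background. Its alpha partner Itga2b gave 3.93 and 4.19 in control, 4.36 and 4.02 with miR-26a and 4.69 and 3.85 with the sponge, with overlapping groups. Neither of these dim genes passed the signal filter for testing, and a second Itgb3 probe was above background on no array.

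Of the 43 collagen genes, 23 were above background on no array, among them Col1a1, Col3a1, Col5a1 and Col5a2, Col6a1 and Col6a3, and Col4a1 and Col4a2, which form the main fibrils, beaded filaments and basement membrane networks. Col1a2, the other chain of type I collagen, was detected on all arrays but dim, at 3.95 to 4.80. The laminin chains Lama3, Lama5, Lamb2, Lamb3 and Lamc1 were detected in all groups, while Lama1, Lama2, Lama4, Lamb1 and Lamc3 were above background on no array. For Lama3 this rests on 1 probe, and its other probe was above background on no array.

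The cell type named by the labels was checked against its markers. The pre-B markers Cd79a, Cd79b, Igll1, Vpreb1, Pax5 and Ebf1 were detected in every group, and on the brightest probe of each gene none was called in any comparison. A second Pax5 probe was lower with miR-26a than with the sponge, by -0.36 (SE 0.07, adjusted p = 0.028 by limma). Of 6 fibroblast or stromal markers (Dcn, Lum, Pdgfra, Pdgfrb, Postn and Fap), 0 were detected in any group, with a summed normalised signal of 16.1 to 17.0 on the control arrays, 18.3 to 18.5 with miR-26a and 15.9 to 19.5 with the sponge. Of 4 epithelial markers, 0 were detected in any group, and of 5 endothelial markers 1 was, Kdr. Of 5 T cell markers, Cd3e and Cd4 were detected on all arrays and not called. Of 4 megakaryocyte markers, Gp9, a platelet glycoprotein, was also detected on all arrays. It gave 6.45 and 6.27 in control, 7.27 and 6.61 with miR-26a and 5.95 and 6.09 with the sponge (log2 normalised signal). It was called higher with miR-26a than with the sponge (0.92, SE 0.18, adjusted p = 0.0284 by limma). Pf4 and Ppbp were above background on no array. Gp1bb was too dim to be tested, at 3.64 and 3.32 in control, 4.13 and 4.26 with miR-26a and 4.04 and 3.97 with the sponge. The part of megakaryocyte expression in the values of the platelet integrins Itga2b and Itgb3 was not tested.

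**Figure D1:**
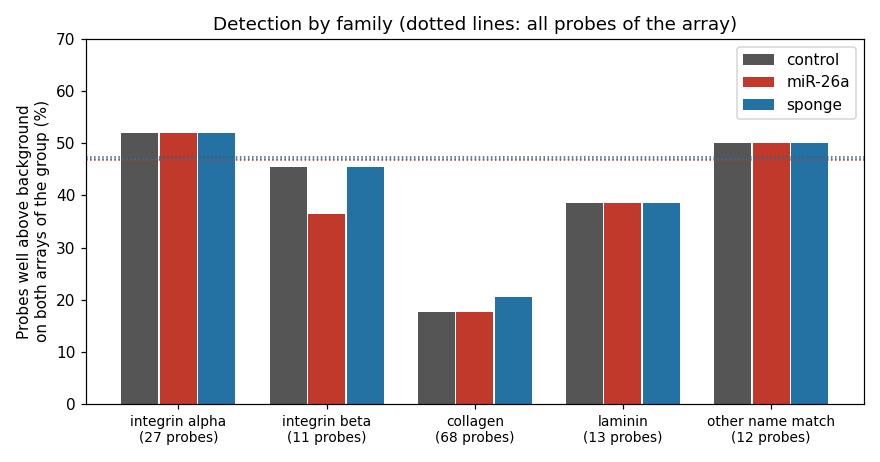
Share of probes (percent, vertical axis) well above background on both arrays of the control, miR-26a and sponge groups, for each family, with the number of probes in parentheses; dotted lines give the share over all probes of the array. Collagen probes stand lowest, at 17.6% in control and miR-26a and 20.6% with the sponge, and integrin alpha probes are at 51.9% in all groups.

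28 probes of 20 member genes were bright enough to be tested, which required signal above 50 on at least 4 arrays. They are 10 integrin alpha, 4 integrin beta, 6 collagen and 4 laminin probes and 4 probes of the other name matches. All tests were made with limma over the 20168 probes that passed this filter, with the experiment as a block, and a probe was called at an adjusted p under 0.05. Only 2 arrays per group were measured, which limits the precision of every value, and in cells grown as a population fewer cells that express a gene and less RNA per cell cannot be told apart. All values below are log2 normalised signals, and all changes are differences of them.

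With miR-26a, 4 of the 28 member probes fell and 0 rose against control, while 5.14% of all tested probes fell and 4.50% rose. The probes that fell were Col5a3, Itgb4, Lamb3 and 1 of the 3 probes of Itgam, 1 in each family of integrin alpha, integrin beta, collagen and laminin genes. At an unadjusted p under 0.05, 8 member probes were lower and 7 higher, while 2616 and 2883 of the 20168 tested probes were. The median change of the 28 was 0.08, against 0.01 over all tested probes.

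Part of each of the 4 probes is shown to place the measurement, since each reads one short site of its transcript. AATAAA, the usual signal for polyadenylation, is in capitals where present. It was in 2 of the 4, in 6 of the 28 tested member probes (21.4%) and in 13.1% of all tested probes.
Col5a3 probe A_51_P241995: tctgtggtctatttaatttgcttccttctg
Itgam probe A_55_P1977929: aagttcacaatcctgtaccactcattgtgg
Itgb4 probe A_55_P1998299: tgttctgcacttAATAAAaggttttgctac
Lamb3 probe A_55_P1967196: aacacaaaacccAATAAAaatctttgaata
In the mm9 coordinates of the array design these probes lie at chr9:20574592-20574651, chr7:135260275-135260334, chr11:115869666-115869725 and chr1:195170009-195170068, in that order. Whether a probe lies in coding or untranslated sequence was not determined, since no annotation of this build was used here.

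Col5a3, the alpha3 chain of the fibrillar type V collagen, showed the largest change of any tested member. It gave 10.02 and 10.20 on the control arrays, 7.64 and 7.55 on the miR-26a arrays and 9.41 and 10.35 on the sponge arrays. Both miR-26a arrays were far below all others, and the control and sponge arrays overlapped. The change with miR-26a was -2.51 (SE 0.24, adjusted p = 0.00698 by limma). The sponge arrays differed from control by -0.23 (SE 0.24, adjusted p = 0.659), and miR-26a lay below the sponge by a difference of -2.29 (adjusted p = 0.00547). Its usual partner chains Col5a1 and Col5a2 were above background on no array.

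Itgb4, the beta4 subunit that pairs with alpha6 to bind laminin, gave 6.72 and 6.22 in control, 5.92 and 5.49 with miR-26a and 6.97 and 6.45 with the sponge. Both miR-26a arrays were lower than every other array, and in every group the second experiment was lower than the first. The change with miR-26a was -0.77 (SE 0.07, adjusted p = 0.00663 by limma) and with the sponge 0.24 (SE 0.07, adjusted p = 0.24). The miR-26a arrays differed from the sponge arrays by -1.0 (adjusted p = 0.00276). Neither probe of its partner Itga6 was called in any comparison, as given below.

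Lamb3, the beta3 chain of laminin-332, gave 7.03 and 6.45 in control, 6.24 and 5.59 with miR-26a and 7.19 and 6.41 with the sponge. Within each experiment miR-26a was the lowest, and as for Itgb4 the second experiment was lower throughout. The change with miR-26a was -0.83 (SE 0.08, adjusted p = 0.00698 by limma), with the sponge 0.06 (adjusted p = 0.74), and between miR-26a and sponge -0.88 (adjusted p = 0.00392).

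Itgam, the alphaM subunit of the myeloid integrin Mac-1, had 3 probes, of which 1 was called. Probe A_55_P1977929 gave 7.78 and 7.83 in control, 6.96 and 7.0 with miR-26a and 7.17 and 7.40 with the sponge. Both constructs lay below both control arrays, and miR-26a was lowest. The change was -0.82 with miR-26a (SE 0.08, adjusted p = 0.0072 by limma). The sponge arrays differed from control by -0.52, the lowest value of any tested member, which was not called (SE 0.08, unadjusted p = 0.000772, adjusted p = 0.191). The difference between the constructs was -0.30 (adjusted p = 0.0541). The 2 comparisons share the control arrays.

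Probe A_55_P1977934 of Itgam, further along the gene (chr7:135261755-135261814), gave 11.51 and 12 in control, 11.66 and 11.97 with miR-26a and 11.30 and 11.95 with the sponge. The groups overlapped, and miR-26a differed from control by 0.06 (SE 0.10, adjusted p = 0.744 by limma). Its first 30 bases are shown because they are mostly a repeat of CA, in capitals where unbroken.
Itgam probe A_55_P1977934: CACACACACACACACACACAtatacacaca
A run of at least 10 CA units was in 24 of the 55681 probes of the array, and 23 of these 24 were bright enough to be tested, while 20168 of the 55681 were. What such a probe binds besides Itgam was not tested. The remaining probe, A_55_P1977926, was below the test's signal minimum, at 4.93 and 5.45 in control, 5.0 and 4.84 with miR-26a and 5.10 and 5.29 with the sponge.

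Of 7 myeloid markers on the array, 4 were detected in control, 3 with miR-26a and 3 with the sponge. Their summed signal was 557 to 682 in control, 546 to 599 with miR-26a and 489 to 513 with the sponge. The marker detected in control but on only 1 miR-26a array was Lyz1, at 5.62 and 4.97 in control, 4.33 and 2.4 with miR-26a and 6.33 and 4.92 with the sponge, so both miR-26a arrays were the lowest, and it was too dim to be tested. Lyz2 and Mpo were above background on 1 sponge array only and Cd14 on none, and neither Csf1r nor Elane, the tested ones, was called. The part of myeloid expression in the Itgam values was not tested.

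**Figure D2:**
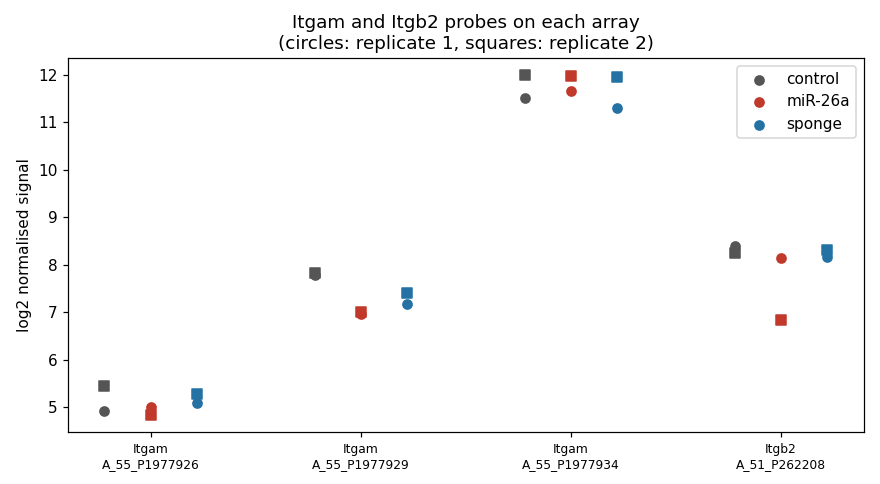
log2 normalised signal (vertical axis) of the 3 Itgam probes and the Itgb2 probe on each array; colour gives the group, circles replicate 1 and squares replicate 2. Probe A_55_P1977929 is lower on the miR-26a and sponge arrays than in control, A_55_P1977934 overlaps between groups at 11.30 to 12, and Itgb2 stands apart on 1 miR-26a array, at 6.85.

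These 4 calls rested on both control arrays. Without control replicate 1 or without control replicate 2, 0 of the 4 passed, with adjusted p from 0.0525 to 0.0766 by limma, while the changes stayed between -2.64 and -0.75. The loss was array-wide, since in these fits the probes called lower over the whole array numbered 75 and 98, against 1036 with all arrays. In the fit without the replicate block, Col5a3 (adjusted p = 0.0246) and Itgam (0.029) were still called and Itgb4 (0.223) and Lamb3 (0.315) were not, while calls over all probes went from 1036 to 238 lower. With normexp background correction all 4 were called, with smaller changes of -0.40 for Itgb4 and -0.47 for Lamb3.

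Itga4 and Itgb1, which together form alpha4beta1, differed from control with opposite signs, and neither passed the test. The Itga4 probe A_55_P2040026 gave 13.07 and 13.21 in control, 12.92 and 12.84 with miR-26a and 13.05 and 13.17 with the sponge. Both miR-26a arrays were the lowest, and the difference from control was -0.26 (SE 0.08, adjusted p = 0.116 by limma). For the other Itga4 probe the difference was -0.34 (SE 0.08, adjusted p = 0.0611) for miR-26a and -0.20 for the sponge.

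The Itgb1 probe A_66_P113059 gave 9.75 and 9.63 in control, 10.00 and 10.03 with miR-26a and 9.67 and 9.53 with the sponge. Both miR-26a arrays were the highest, with a difference of 0.32 from control (SE 0.08, adjusted p = 0.0582 by limma) that passed the test after normexp background correction (adjusted p = 0.0314), and a called difference from the sponge, described below. The second Itgb1 probe differed by 0.28 (SE 0.08, adjusted p = 0.0953).

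Itga6, the laminin-binding partner of beta1 and beta4, gave 11.44 and 11.57 in control, 11.17 and 11.57 with miR-26a and 11.43 and 11.52 with the sponge on its brightest probe. The groups overlapped, and both of its probes differed little between miR-26a and control, by -0.14 (SE 0.10) and -0.12 (SE 0.07), neither called. Itgav, the alpha subunit of the vitronectin receptors, was at 7.94 and 7.91 in control, 8.01 and 7.93 with miR-26a and 7.88 and 7.83 with the sponge, a difference of 0.05 for miR-26a (SE 0.07, adjusted p = 0.712 by limma). Itga10, a collagen-binding subunit, has 2 probes that share 54 bases and are close to one measurement, and their differences from control were 0.15 and 0.28 for miR-26a, and 0.25 and 0.29 for the sponge, none called.

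Itgb2, the beta subunit shared by the alphaL and alphaM integrins, gave 8.40 and 8.25 in control, 8.15 and 6.85 with miR-26a and 8.17 and 8.31 with the sponge. Only miR-26a replicate 2 was clearly lower, and the difference of -0.83 (SE 0.33, adjusted p = 0.183 by limma) depended on it. Without that array it was -0.18 (adjusted p = 0.485), and without miR-26a replicate 1 it was -1.48 (adjusted p = 0.00177). The Itgal probe A_55_P2184606 was detected on all arrays but dim, at 4.36 and 4.29 in control, 4.44 and 4.19 with miR-26a and 4.13 and 4.0 with the sponge. A further Itgal probe was above background on 1 sponge array only.

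**Figure D3:**
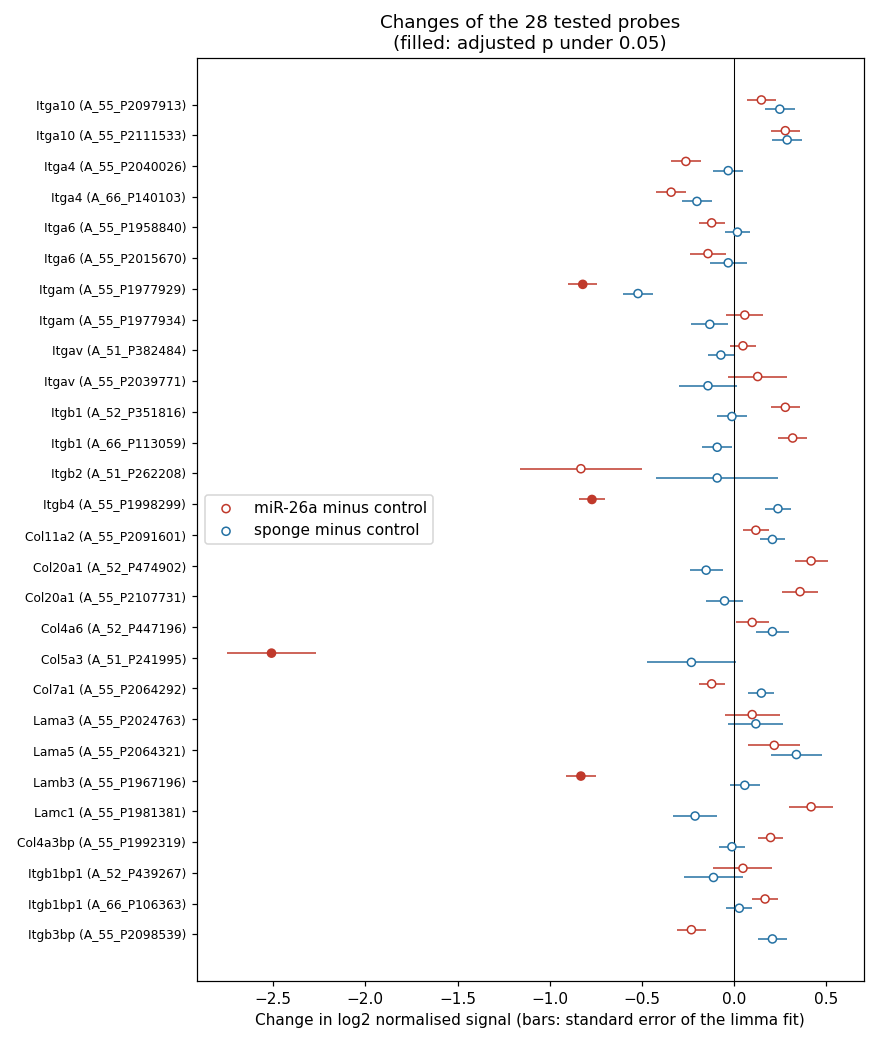
Change in log2 normalised signal against control (horizontal axis) of the 28 tested member probes, for miR-26a and for the sponge; points are the limma estimates, bars their standard errors, and filled points have an adjusted p under 0.05. Col5a3 is at -2.51 with miR-26a, Itgam A_55_P1977929, Itgb4 and Lamb3 lie between -0.83 and -0.77, and no sponge point is filled.

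With the sponge, 0 member probes fell and 0 rose against control by limma, while 0% of all tested probes fell and 0.00992% rose. At an unadjusted p under 0.05, 1 member was lower (Itgam A_55_P1977929) and 5 were higher, among them both overlapping probes of Itga10, while 1759 of the 20168 tested probes were lower and 1488 higher. The plain unpaired test called 0 of all 20168 probes in every comparison, so its 0 for these members says nothing further. Over the 28 members the median difference between sponge and control was -0.02, the lowest -0.52 and the highest 0.34, for Lama5, the alpha5 chain of vascular basement membranes. A missed threshold does not show that the sponge left these genes as they were.

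The difference between miR-26a and sponge cells, which tests whether the constructs act unequally, was called for 8 of the 28 member probes. 4 were lower with miR-26a and 4 higher, while 8.49% of all tested probes were lower and 8.28% higher. The lower ones were Col5a3, Itgb4 and Lamb3, whose values are given above, and Itgb3bp. The higher ones were Itgb1, Lamc1 and both probes of Col20a1.

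Lamc1, the gamma1 chain found in most laminins, gave 11.75 and 11.69 in control, 12.25 and 12.04 with miR-26a and 11.39 and 11.64 with the sponge. The groups did not overlap, with miR-26a highest and sponge lowest. The difference between miR-26a and sponge was 0.63 (SE 0.12, adjusted p = 0.0238 by limma), made up of 0.42 for miR-26a (adjusted p = 0.0843) and -0.21 for the sponge (adjusted p = 0.427) against control, neither called. Lamc1 and Lamb3, chains of different laminin trimers, thus had opposite signs with miR-26a, and Lama3 (0.10, SE 0.15) and Lama5 (0.22, SE 0.14) were not called.

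Col20a1, a collagen that associates with fibrils, had 2 probes. A_52_P474902 gave 6.51 and 6.40 in control, 6.81 and 6.94 with miR-26a and 6.39 and 6.22 with the sponge, and A_55_P2107731 gave 6.44 and 6.80, 6.95 and 7.01, and 6.39 and 6.75. On both probes the miR-26a arrays were the highest, and sponge and control arrays were close. The differences between miR-26a and sponge were 0.57 (SE 0.09, adjusted p = 0.0172 by limma) and 0.41 (SE 0.10, adjusted p = 0.0446).

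The Itgb1 probe A_66_P113059 differed by 0.41 between miR-26a and sponge (SE 0.08, adjusted p = 0.0236 by limma), and its second probe by 0.30 (adjusted p = 0.0646). Itgb3bp, the centromere protein, gave 12.18 and 12.13 in control, 11.91 and 11.94 with miR-26a and 12.45 and 12.29 with the sponge. Its groups did not overlap and ran opposite to Lamc1, with a difference between miR-26a and sponge of -0.44 (SE 0.08, adjusted p = 0.0194).

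Without sponge replicate 1 or without sponge replicate 2, 3 of the 4 lower calls (Col5a3, Itgb4 and Lamb3) passed and 0 of the 4 higher ones did, with adjusted p of 0.0503 to 0.213 for the 4 higher probes. Without control replicate 1 or without control replicate 2, Itgb1 (adjusted p = 0.0569), the Col20a1 probe A_55_P2107731 (0.077) and Itgb3bp (0.0509) were not called. Without miR-26a replicate 1, Lamc1 (0.0549), Itgb3bp (0.0662) and the same Col20a1 probe (0.151) were not called, and without miR-26a replicate 2 Itgb1 (0.0848) was not. In the fit without the replicate block, Col5a3 (adjusted p = 0.0199), Lamc1 (0.0469) and the Col20a1 probe A_52_P474902 (0.0404) were still called, and Itgb4 (0.0902) and Lamb3 (0.208) were not. With normexp background correction all 8 were called, but the difference was -0.55 for Itgb4, -0.50 for Lamb3, and 0.34 and 0.27 for the Col20a1 probes.

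**Figure D4:**
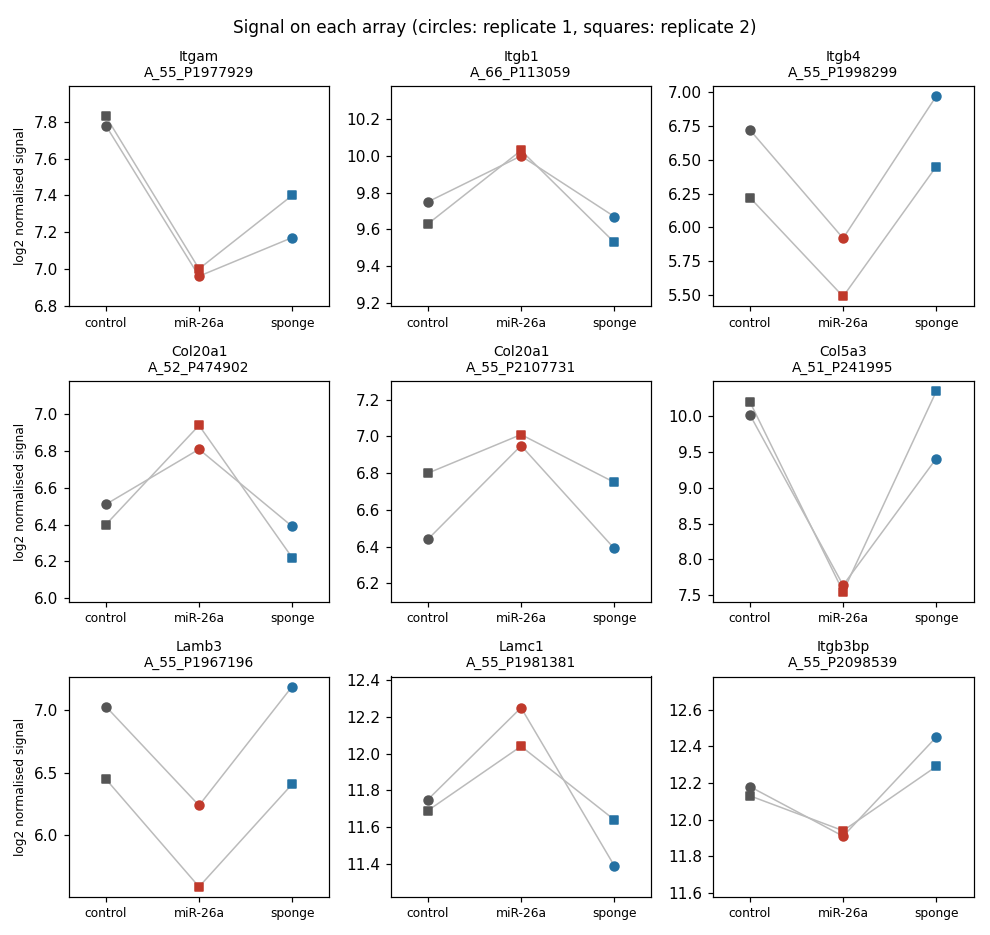
log2 normalised signal (vertical axes, each with its own range) on every array for the 9 member probes called against control or between miR-26a and sponge; circles are replicate 1, squares replicate 2, and grey lines join arrays of the same replicate number. Col5a3, Itgam, Itgb4, Lamb3 and Itgb3bp dip with miR-26a, and Itgb1, Lamc1 and both Col20a1 probes peak there.

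None of the other tested collagens was called. Col7a1, the anchoring fibril collagen, gave 8.57 and 9.04 in control, 8.47 and 8.90 with miR-26a and 8.67 and 9.24 with the sponge, so its experiments differed more than its groups. For Col4a6 and Col11a2 the difference from control was 0.10 and 0.12 with miR-26a, and 0.21 for each with the sponge. A second Col4a6 probe was above background on no array.

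For probes not well above background in one group, the difference of the group means has only a lower bound and no test. A single experiment can differ by less than this bound. The bound sets the brighter group's mean against the lowest signal of any probe well above background on each array of the dim group, or the dim probe's own signal where higher. Col27a1, a fibrillar collagen of cartilage, gave 4.57 and 4.86 in control, 2.88 and 3.30 with miR-26a (not well above background) and 4.63 and 4.79 with the sponge. It was at least 2.45-fold lower with miR-26a than in control and at least 2.43-fold lower than with the sponge. Col6a2 probe A_51_P279639 was well above background on both sponge arrays (4.93 and 4.50) and on neither control array (2.52 and 2.94). It was at least 2.42-fold higher with the sponge than in control, and the other Col6a2 probe was above background on no array. Col9a1 probe A_55_P2005269 gave 3.14 and 3.79 in control (not well above background), 4.28 and 4.02 with miR-26a and 4.11 and 4.24 with the sponge. By group means it was at least 1.45-fold higher with miR-26a and at least 1.48-fold higher with the sponge. In replicate 2 alone the log2 differences from control were smaller, 0.23 and 0.45. The other Col9a1 probe was above background on no array. Lamb2, the beta2 chain, was detected on all arrays, but too few of them passed the test's signal minimum. It gave 5.67 and 5.91 in control, 4.92 and 4.57 with miR-26a and 5.50 and 5.44 with the sponge. Both miR-26a arrays were the lowest.

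Other genes of the same pathways were followed as 4 lists, each gene by its brightest probe. The shares of all tested probes that fell (5.14%) and rose (4.50%) with miR-26a are the background for their counts. Of 30 genes of the integrin activation and adhesion machinery, 18 were tested, and 2 fell and 1 rose with miR-26a. The median change was 0.06, against 0.01 over all tested probes. Rasgrp2, an exchange factor for Rap1, fell by 0.35 (SE 0.07, adjusted p = 0.0337 by limma), and Cib1, which binds the tail of alphaIIb, fell by 0.30 (SE 0.07, adjusted p = 0.0486). Vcl, the adhesion linker vinculin, rose by a log2 difference of 0.39 (SE 0.07, adjusted p = 0.0272). With the sponge Vcl differed from control by 0.30, which was not called (unadjusted p = 0.00521, adjusted p = 0.221 by limma). For Vcl the difference between miR-26a and sponge was 0.09 (adjusted p = 0.39), and both comparisons with control share the control arrays. Rasgrp2 and Cib1 differed between miR-26a and sponge by -0.54 and -0.31 (adjusted p = 0.00864 and 0.033 by limma). That Cib1 call was lost whichever array was left out, and the Rasgrp2 call in some such fits. The other tested genes of this list were not called.

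Of 17 genes for ligands of leukocyte integrins, 3 were tested and 1 fell. Spp1, the secreted ligand osteopontin, gave 8.02 and 8.20 in control, 6.78 and 7.37 with miR-26a and 8.23 on both sponge arrays. Its change with miR-26a was -1.03 (SE 0.14, adjusted p = 0.0155 by limma), and both miR-26a arrays were below all others. The difference between miR-26a and sponge was -1.16 (adjusted p = 0.00876), a call that was lost in some fits with 1 array left out. The others tested were Icam1 and Icam2.

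Of 15 further binding partners of collagens and laminins, 7 were tested, and 2 rose and 0 fell with miR-26a. Agrn, the basement membrane proteoglycan agrin, gave 7.43 and 7.60 in control, 8.13 and 8.79 with miR-26a and 7.43 and 7.42 with the sponge, a change of 0.95 (SE 0.16, adjusted p = 0.026 by limma). Dag1, the laminin receptor dystroglycan, which also binds agrin, gave 8.95 and 8.83 in control, 9.38 and 9.53 with miR-26a and 8.71 and 8.79 with the sponge, a change of 0.57 (SE 0.09, adjusted p = 0.0202). For both genes the miR-26a arrays lay above all others. The differences between miR-26a and sponge were 1.04 for Agrn and 0.71 for Dag1 (adjusted p = 0.0152 and 0.00883 by limma). Both of these calls were lost in some fits with 1 array left out.

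Of 27 collagen synthesis and processing genes on the array, 11 were tested, and 0 were called against control with either construct by limma. At an unadjusted p under 0.05, 0 were lower and 5 higher with miR-26a, and 2 lower and 0 higher with the sponge, while 2616 and 2883 of all 20168 tested probes were lower and higher with miR-26a, and 1759 and 1488 with the sponge. Between miR-26a and sponge, 4 were higher with miR-26a and 0 lower (8.28% and 8.49% of all tested probes), led by Crtap (0.62, adjusted p = 0.0133 by limma), Glt25d1 (0.51, adjusted p = 0.0137) and P4ha3 (0.35, adjusted p = 0.0369), which modify or help fold collagen chains. Other values of the list ran the opposite way. A second probe of Bmp1, which cleaves procollagen, was lower with miR-26a than with the sponge (-0.37, SE 0.09, adjusted p = 0.0457 by limma). The brightest Bmp1 probe and another tested one were instead higher with miR-26a, by 0.16 and 0.20, and neither was called. Serpinh1, the collagen chaperone, and Plod2, a lysyl hydroxylase, were not well above background on the miR-26a arrays. By group means they were at least 4.09-fold and at least 2.81-fold higher with the sponge, without a test. Plod2 was also at least 1.94-fold higher in control by group means. It gave 4.89 and 4.05 in control, 3.0 and 3.58 with miR-26a and 5.18 and 4.83 with the sponge. In replicate 2 alone its log2 difference between miR-26a and control was only -0.47. Over the 4 lists, 0 of the 39 tested genes were called with the sponge against control by limma, with 5 lower and 2 higher at an unadjusted p under 0.05. Without control replicate 1 or without control replicate 2, none of the 6 calls in the lists against control passed, with adjusted p from 0.079 to 0.297, and without the replicate block their adjusted p ran from 0.0579 to 0.121. Vcl, Rasgrp2 and Cib1 lost their calls against control whichever array was left out, and Dag1 lost its call without miR-26a replicate 2 (adjusted p = 0.0549) and without either sponge array (0.0544). Between miR-26a and sponge, P4ha3 was not called when any 1 array was left out, Crtap was not without sponge replicate 1 (0.0773), and Glt25d1 was not without sponge replicate 1 (0.0915) or 2 (0.0661).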

How the data were processed

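RNA of 3 groups, each with 2 arrays, was hybridised to 1-colour Agilent mouse arrays. The authors deposited scanner output with an intensity for each spot (processed, mean and background signal) and flags, and a table of quantile-normalized intensities on the linear scale. Feature Extraction is given as 10.7.1.1 in the submitters' processing notes and 10.7.3.1 in the file headers. Control spots were left out, and processed intensities were quantile-normalized here and taken to log2. Replicate spots of a probe were averaged without flagged spots, which were kept only where all spots of the probe were flagged. Of the 131 member probes, 1 had more than 1 spot, so for the others no flagged spot was left out. Spots at the lowest value the software gives were 29.6% to 33.6% of each array.

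Probes above 50 on 4 or more arrays, and well above background on 1 or more, entered limma 3.58.1 (R 4.3.3), with all 6 arrays in one fit and Benjamini-Hochberg adjustment. The replicate number was the experiment block, because the methods scale to the control of each experiment. That same-numbered control and construct arrays were made side by side is an assumption. The slide row equalled the replicate number on all 6 arrays, so experiment and row cannot be told apart. Deviations from the group means of same-numbered arrays correlated across probes at 0.38, 0.59 and 0.45. Replicates correlated at 0.9957 to 0.9974. Gene names and coordinates (mm9) came from the array design, and all 131 member probes matched RefSeq symbols. pandas 2.3.3, numpy 2.4.6 and matplotlib 3.10.9 were used, and scripts were tested on simulated data.

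The members, gene lists and markers were chosen with earlier results of these data known. The text names every member probe called, a set of integrin genes with Col5a3 and Lamb3, the 5 brightest probes of each family, members with a seed word, and called genes of the 4 lists (the 3 largest a direction). Itga10, Lamb2, Col27a1, Col6a2, Col9a1 and Col1a2 were also named after their values were seen. Mature miR-26 was not measured here, and 1 member and 1 marker gene are not reported by name here. Alternatives were the fit without the block, 75th percentile scaling, normexp with an offset of 50, the deposited table, detection on all 6 arrays, no filter, an unpaired test and leaving out each array.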

Additional observations from a re-analysis of the deposited data

How the results depend on the processing

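The replicate numbers were taken to stand for the experiments, which is an assumption. Without the replicate block 2 members were lower and 0 higher with miR-26a than in control, and 1 was lower and 2 higher than with the sponge. Members higher with miR-26a than in control numbered 1 with 75th percentile scaling, 2 with normexp and 1 with the deposited values. With no filter on low signals, and in the unpaired test, 0 members were called lower or higher in either comparison, as were 0 probes of the whole array. Leaving out 1 array at a time gave 0 to 5 members lower and 0 to 2 higher than in control, and 3 to 4 lower and 0 to 3 higher than with the sponge. The count with the sponge against control was 0 under every alternative run, and no named probe called in the main analysis changed sign. Groups of 2 arrays, dim probes and 78 undetected member probes limit what can be measured, and where 1 array of a group was left out, the lone array is assumed to vary like the others. The causes of these shifts were not tested.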
